A study of Mus musculus with 4 samples.

Results

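The genes of the ADAMTS, MMP and ADAM families of extracellular and cell-surface metalloproteinases, of the non-catalytic ADAMTS-like proteins and of the TIMP inhibitors were followed. The samples were lungs of mice carrying metastases of 4T1, a mouse triple-negative breast cancer (TNBC) cell line. The genes were taken by symbol from the 56748 rows of the deposited table of read counts per gene. They numbered 50, with 19 ADAMTS, 5 ADAMTS-like, 15 MMP, 7 ADAM and 4 TIMP genes. The metalloproteinases of neutrophil granules, Mmp8 and Mmp9, were not among them. Of the 50 genes, 42 had enough counts to be tested, within 15167 genes tested in all. The other 8 were Adamts13, Adamts18, Adamts19, Adamts20, Mmp7, Mmp16, Mmp24 and Timp4.

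Bulk RNA sequencing covered 2 saline libraries and 2 cmLumiOpto/PARPi libraries. All were BALB/cJ females that received 4T1-FLuc cells, 4T1 carrying firefly luciferase, through the tail vein at 7 weeks of age. Treatment began once metastases were seen by imaging, and its length is recorded as 3 weeks for all 4 libraries. The treated mice received an exosome-associated AAV bearing an antibody to CD276, which carries the cmLumiOpto genes (a luciferase and a light-gated channel of the inner mitochondrial membrane) under a cfos promoter. They also received ViviRen, the luciferase substrate, and 50 mg/kg of olaparib, a PARP inhibitor, so the vector, its substrate and olaparib cannot be told apart. The saline group is called PBS in one label field. The labels describe the material as harvested tumour cells, whereas the study's methods describe lung tissue with metastases, and markers of lung epithelium were detected in all 4 libraries. No source says that the libraries of a group came from separate mice, so the p-values measure the spread between these libraries only.

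The ADAMTS, MMP and ADAM proteins belong to the metzincins, zinc-dependent proteinases that are made as inactive precursors and switched on by removal of a propeptide. MMPs cut collagens, gelatin, elastin and other matrix proteins, ADAMTS enzymes process procollagens and the large proteoglycans, and ADAMs release the outer parts of membrane proteins such as cytokines, growth factors and their receptors. TIMPs bind the active site of these enzymes and block it, and ADAMTS-like proteins share the matrix-binding modules of ADAMTS enzymes without the proteinase domain. In metastatic lung such genes are known to be expressed by fibroblasts, macrophages, endothelial cells and tumour cells.

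The libraries held 15263375 to 16755228 counts, and the floor of 3 counts corresponded to 0.173 to 0.204 CPM (counts divided by library size, with TMM factors), which covers counting error only. The 50 genes together took 0.344% and 0.358% of all counts in saline and 0.248% and 0.294% after cmLumiOpto/PARPi. By the quasi-likelihood test of edgeR, adjusted after Benjamini and Hochberg, 0 of 15167 genes (0%) passed an adjusted p of 0.05, and the smallest adjusted p was 0.138. An unadjusted p under 0.05 was reached by 3221 genes (21.2%), 1397 of them higher and 1824 lower after cmLumiOpto/PARPi. Scaling by library totals alone changed that split to 1762 higher and 1482 lower. An exact permutation of 2 libraries against 2 cannot give a two-sided p below 0.333.

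Most of the tested genes of these families were lower after cmLumiOpto/PARPi. The log2 fold change (cmLumiOpto/PARPi over saline) was below 0 in 30 of the 42 and above 0 in 12, where 52% of all tested genes were above 0, with a median of -0.39, beside a median of 0.02 over all tested genes. None of the 42 passed the adjusted threshold in this test. DESeq2 called 10 of the 42 (2 higher and 8 lower), beside 981 genes in all (7.32% of those tested). The exact and likelihood ratio tests of edgeR called 9 of the 42 each (2 higher and 7 lower). In all they called 815 genes (5.37%) and 865 genes (5.70%). In the quasi-likelihood test 17 (40.5%) had an unadjusted p under 0.05, against 21.2% of all genes. Of these 17, 14 were lower (33.3%, against 12% of all genes) and 3 were higher (7.14%, against 9.21%). Both treated libraries lay below both saline libraries in 20 genes (47.6%, against 27.8% of all genes) and above both in 6 (14.3%, against 27.4%), which makes 26 genes without overlap (61.9%, against 55.2%), and the groups overlapped in 16. Leaving out one library gave 10 to 22 genes at an unadjusted p under 0.05, and the share of all genes moved too. Without cmLumiOpto/PARPi replicate 1 there were 10 of 44 tested (22.7%, against 11.8% of all genes), without saline replicate 2 there were 11 of 43 (25.6%, against 10.7%), and without cmLumiOpto/PARPi replicate 2 there were 22 of 44 (50%, against 21.6%).

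**Figure D1:**
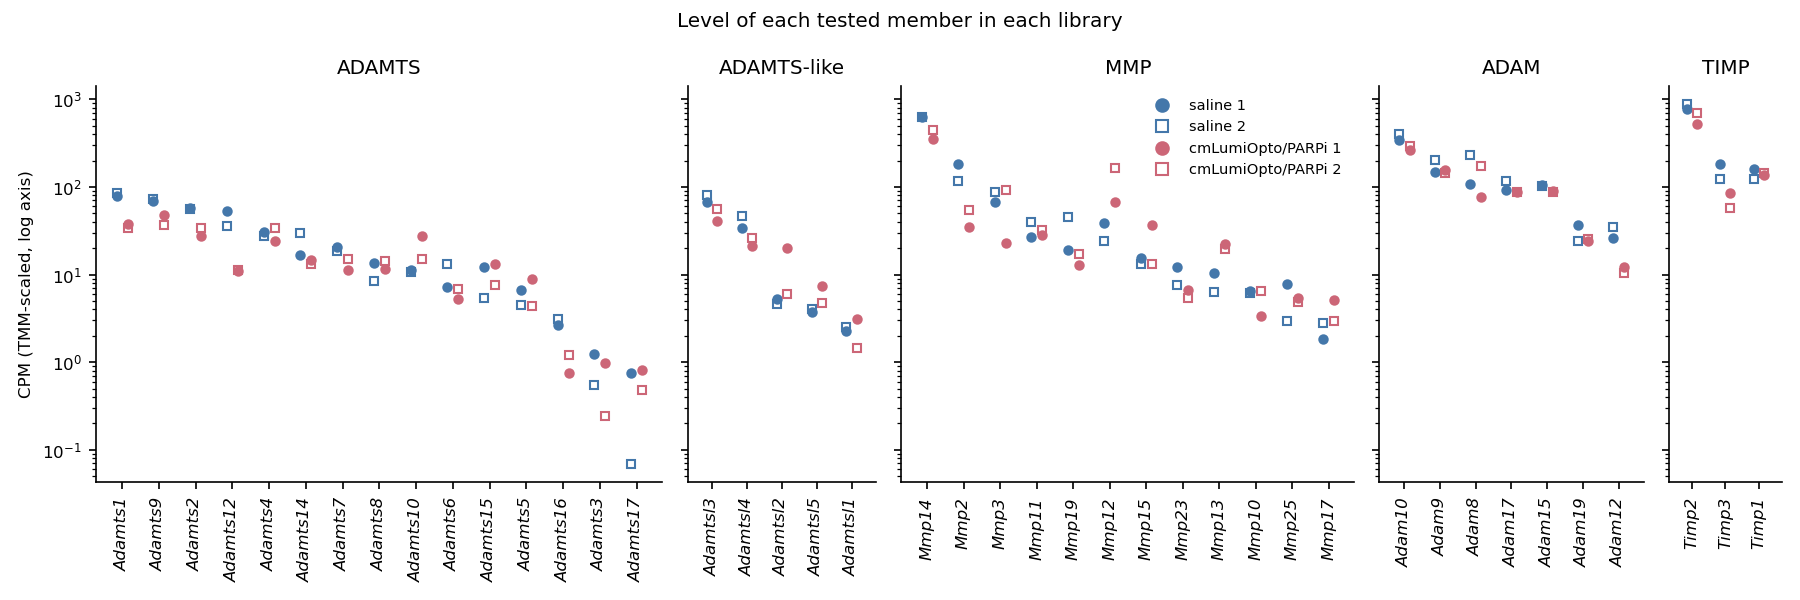
CPM scaled by TMM (log axis) of the 42 tested genes in each of the 4 libraries, grouped by family and ordered by level; circles are replicate 1 and squares replicate 2, blue saline and red cmLumiOpto/PARPi. Red points lie below both blue points in 20 genes, as in Adamts12, Mmp2 and Adam12, and above both in 6, as in Mmp12 and Mmp13.

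The inhibitors and a membrane-bound MMP were the most abundant of the 50 genes once levels were divided by gene length (CPM per kilobase). In saline lungs Timp2 led with 212 CPM per kilobase, followed by Timp1 (160), Mmp14 (104) and Adam10 (75.6), and each of these 4 lay above the next in both libraries. Mmp2 (44.3), Mmp3 (42.7), Adam9 (42.3) and Adam8 (36.2) came next and overlapped between libraries. The first 4 places were held by the same 4 genes after cmLumiOpto/PARPi, with Timp1 (159) and Timp2 (158) at nearly equal levels. Below them the order was different: Mmp2 was in place 5 in saline and 10 after treatment, Adamts1 in 11 and 15, and Adamts12 in 24 and 33, whereas Mmp12 was in place 21 in saline and 8 after treatment and Mmp13 in 26 and 14.

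Among the ADAMTS enzymes, 9 of 15 tested genes had a log2 fold change below 0 and 6 above, with a median of -0.58. At an unadjusted p under 0.05, 6 of the 15 were lower and 1 was higher, beside 12% and 9.21% of all tested genes. The tested ADAMTS genes had a median length of 7764 bases. Of all tested genes of 7273 bases or more, 31.4% were lower at that threshold. Summed per length, the family stood at 51.2 and 51.1 CPM per kilobase in saline and at 33.0 and 32.8 after cmLumiOpto/PARPi, a ratio of 0.643. These sums lay close together within each group and did not overlap between the groups. Single genes were more spread and in opposite directions. In saline, Adamts12 was at 4.83 and 3.28 CPM per kilobase and Adamts14 at 3.26 and 5.70. Adamts1 alone made up 30.2% of the sum in saline and 20.5% after treatment.

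Adamts12 (chr15:11064790-11349231, plus strand, GRCm38) encodes a secreted enzyme that cleaves cartilage oligomeric matrix protein (COMP) and had the lowest log2 fold change of the 42. It stood at 52.7 and 35.8 CPM in saline and at 10.9 and 11.3 CPM after cmLumiOpto/PARPi, so both treated libraries lay well below both saline libraries. The log2 fold change was -2.00 ± 0.24 (SE, n = 2 per group), with an adjusted p of 0.138 in edgeR's quasi-likelihood test, and Adamts12 ranked 9 by p among all tested genes. It ranged from -2.27 to -1.71 when 1 library was left out, and without saline replicate 2 it passed the adjusted threshold (adjusted p = 0.0404). Adamts7, which also cleaves COMP, was at 20.5 and 18.8 CPM in saline and at 11.2 and 15.2 CPM after treatment (log2 fold change -0.58 ± 0.23, and -0.38 without cmLumiOpto/PARPi replicate 1).

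The hyalectanases cut versican, aggrecan and related proteoglycans that bind hyaluronan, and their members differed among themselves. Adamts1 (chr16:85793827-85803113, minus strand) was at 78.8 and 84.8 CPM in saline and 37.8 and 33.7 CPM after cmLumiOpto/PARPi. The treated level was 0.437 of the saline level (log2 fold change -1.19 ± 0.14, adjusted p = 0.138 in edgeR's quasi-likelihood test), with no overlap, and the gene ranked 11 by p among all tested genes. Adamts9, which cleaves the same proteoglycans, was at 69.0 and 73.7 CPM in saline and 48.2 and 37.2 CPM after treatment (log2 fold change -0.74 ± 0.17, and -0.44 with the length trend removed). The other 4 tested hyalectanases overlapped between the groups. Adamts4 was at 30.6 and 27.5 CPM in saline and 24.4 and 34.0 CPM after treatment, Adamts8 at 13.7 and 8.52 CPM and at 11.5 and 14.2 CPM, and Adamts5, the neighbour of Adamts1 on chromosome 16, at 6.59 and 4.5 CPM and at 8.81 and 4.39 CPM. Their log2 fold changes, with that of Adamts15, lay between 0.01 and 0.25, and each of the 4 changed sign when 1 library was left out. Adamts20 had 7 and 12 counts in saline and 1 and 5 after treatment and was not tested.

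The 3 procollagen N-proteinases, which remove the amino-terminal propeptides of fibrillar procollagens, all had log2 fold changes below 0. Adamts2 was at 57.7 and 55.9 CPM in saline and at 27.8 and 33.8 CPM after cmLumiOpto/PARPi (log2 fold change -0.88 ± 0.16, adjusted p = 0.138 in edgeR's quasi-likelihood test), again without overlap. Adamts14 stood at 16.9 and 29.6 CPM in saline and 14.6 and 13.4 CPM after treatment (log2 fold change -0.73 ± 0.30), a difference that was -0.29 without saline replicate 2. Adamts3 was near the floor, with 20 and 8 counts in saline and 17 and 4 after treatment.

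Adamts10, a fibrillin-associated enzyme of microfibrils, was the one ADAMTS gene that was higher at an unadjusted p under 0.05. It was at 11.4 and 10.8 CPM in saline and at 27.3 and 15 CPM after cmLumiOpto/PARPi (log2 fold change 0.93 ± 0.32, adjusted p = 0.197 in edgeR's quasi-likelihood test). The excess lay mainly in cmLumiOpto/PARPi replicate 1, and without that library the log2 fold change was 0.43. Its close relative Adamts6 had the opposite sign, with 7.21 and 13.1 CPM in saline and 5.30 and 6.92 CPM after treatment (log2 fold change -0.73 ± 0.38, and -0.26 without saline replicate 2). Adamts16 was low throughout, at 2.63 and 3.13 CPM in saline and at 0.748 and 1.20 CPM after treatment (log2 fold change -1.56 ± 0.48). Adamts17 had 12 and 1 counts in saline and 14 and 8 after treatment, so the groups overlapped. Adamts13, the von Willebrand factor-cleaving proteinase, had 2 or 3 counts in each library, Adamts19 had 0 to 4, and Adamts18 had 0 in all 4, which allows up to 0.173 to 0.204 CPM.

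**Figure D2:**
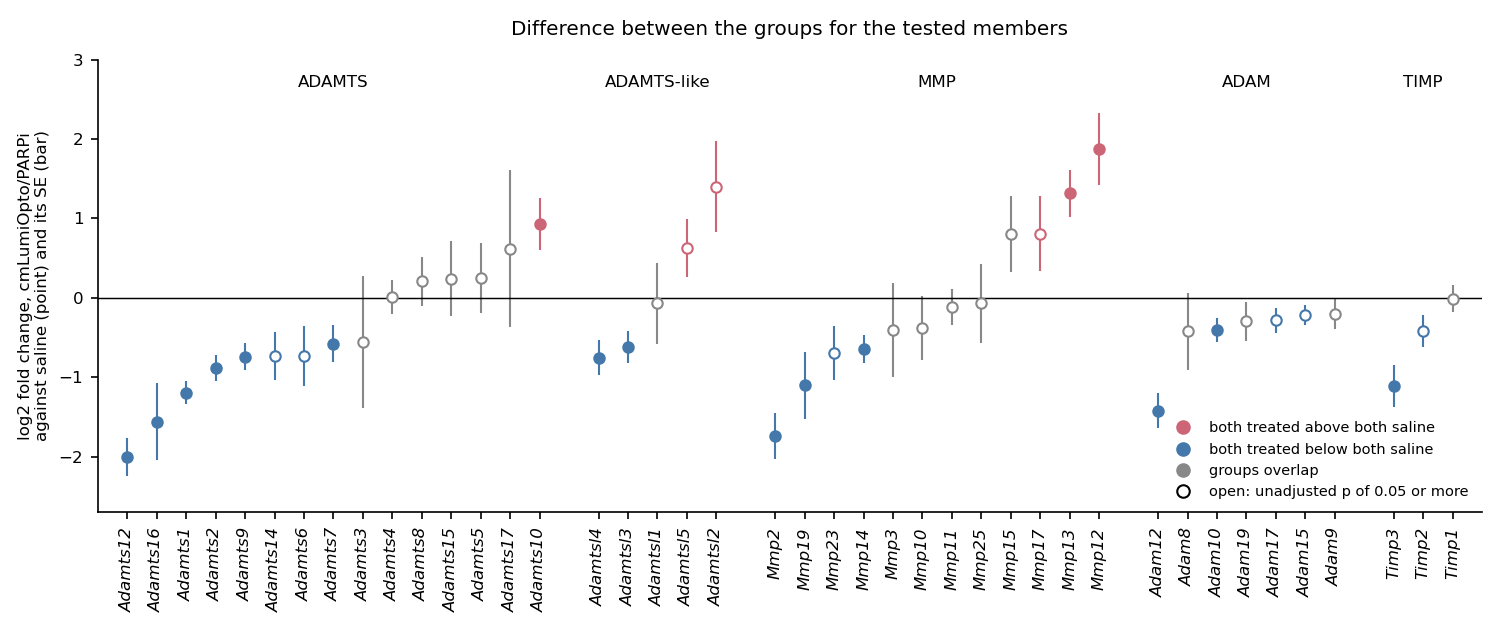
Log2 fold change (cmLumiOpto/PARPi over saline, points) and its SE (bars) of the 42 tested genes by family, n = 2 libraries per group; blue and red mark genes whose groups do not overlap, grey those that overlap, and open points an unadjusted p of 0.05 or more. The range runs from -2.00 in Adamts12 to 1.88 in Mmp12, and all 7 ADAM genes lie below 0.

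The ADAMTS-like genes encode proteins without a catalytic domain that sit on fibrillin microfibrils and in the pericellular matrix. The 5 genes were divided, with a median log2 fold change of -0.07. Adamtsl4 was at 34.2 and 46.0 CPM in saline and 21.1 and 26.5 CPM after cmLumiOpto/PARPi (log2 fold change -0.75 ± 0.22), and Adamtsl3 at 66.6 and 80.7 CPM and at 40.6 and 55.6 CPM (-0.62 ± 0.20, and -0.41 without cmLumiOpto/PARPi replicate 1). Both were lower in both treated libraries, with adjusted p of 0.163 and 0.184 in edgeR's quasi-likelihood test. Adamtsl2, known for binding latent TGF-β binding protein 1, was at 5.27 and 4.63 CPM in saline and at 20.2 and 5.96 CPM after treatment. Its log2 fold change of 1.40 ± 0.58 came down to 0.26 without cmLumiOpto/PARPi replicate 1, the library with 351 of its counts. Adamtsl5 was at 3.76 and 4.09 CPM in saline and 7.43 and 4.69 CPM after treatment (0.63 ± 0.37, and 0.26 without cmLumiOpto/PARPi replicate 1), and Adamtsl1 at 2.26 and 2.52 CPM and at 3.11 and 1.44 CPM, with overlap (-0.07 ± 0.51).

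The MMP genes held the highest log2 fold change of the 42, in Mmp12, and the second lowest, in Mmp2. Of 12 tested genes, 8 had a log2 fold change below 0 and 4 above. At an unadjusted p under 0.05, 3 of the 12 were lower and 2 higher, beside 12% and 9.21% of all tested genes. Per length, the family summed to 233 and 231 CPM per kilobase in saline and to 127 and 199 after cmLumiOpto/PARPi. Mmp14, Mmp2 and Mmp3 made up 82.5% of that sum in saline and 68.9% after treatment.

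Mmp2 (gelatinase A, chr8:92827291-92853420, plus strand) digests gelatin and basement membrane collagen and is activated at the cell surface by Mmp14 together with Timp2. It was at 180 and 118 CPM in saline and 35.3 and 54.3 CPM after cmLumiOpto/PARPi, so the treated level was 0.30 of the saline level without overlap. The log2 fold change was -1.74 ± 0.29 (n = 2 per group, adjusted p = 0.138 in edgeR's quasi-likelihood test). Its activator Mmp14, a transmembrane collagenase, was nearly equal in the saline libraries, at 622 and 621 CPM, and at 349 and 446 CPM after treatment. The log2 fold change of Mmp14 was smaller, -0.64 ± 0.17, with an adjusted p of 0.151 in edgeR's quasi-likelihood test. Timp2, the third part of this activation complex, was at 767 and 883 CPM in saline and 527 and 706 CPM after treatment. All 3 genes stood lower in both treated libraries than in both saline libraries, as did 27.8% of all tested genes. Timp2 had an adjusted p of 0.289 in edgeR's quasi-likelihood test. Its log2 fold change was -0.42 ± 0.20, and -0.23 without cmLumiOpto/PARPi replicate 1.

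Of the other membrane-bound MMPs, Mmp15 was at 15.5 and 13.1 CPM in saline and at 36.9 and 13.1 CPM after cmLumiOpto/PARPi. cmLumiOpto/PARPi replicate 1 alone stood out, and without it the log2 fold change of 0.81 ± 0.48 was -0.13. Mmp17, anchored by a lipid, was at 1.82 and 2.79 CPM in saline and at 5.12 and 2.95 CPM after treatment (0.81 ± 0.47, and 0.36 without that same library). Mmp25, the other lipid-anchored form, overlapped (log2 fold change -0.07 ± 0.50). Mmp16 had 0 to 5 counts and Mmp24 had 4 to 13.

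Mmp19 and Mmp23 were lower in both treated libraries than in both saline libraries. Mmp19, a secreted enzyme of basement membrane proteins, was at 19.1 and 45.3 CPM in saline and at 12.9 and 17.1 CPM after cmLumiOpto/PARPi (log2 fold change -1.10 ± 0.42). The difference was -0.36 without saline replicate 2, and 22.3% of its exon bases are shared with Tmem198b on the opposite strand. Mmp23, which lacks the usual cysteine switch of the propeptide, was at 12 and 7.56 CPM in saline and 6.74 and 5.42 CPM after treatment (-0.69 ± 0.34, and -0.33 without saline replicate 1). Mmp11 (stromelysin 3) overlapped, with a log2 fold change of -0.12 ± 0.23.

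A cluster of MMP genes on chromosome 9 held the 2 MMP genes that were higher at an unadjusted p under 0.05. Mmp13 (collagenase 3, chr9:7272514-7283331) cuts fibrillar collagens and was at 10.4 and 6.34 CPM in saline and at 22.1 and 19.6 CPM after cmLumiOpto/PARPi. The groups did not overlap (log2 fold change 1.31 ± 0.30, adjusted p = 0.138 in edgeR's quasi-likelihood test), and the value ranged from 0.99 to 1.70 when 1 library was left out. Mmp12 (macrophage elastase, chr9:7344381-7369499) was at 38.9 and 24.1 CPM in saline and at 67.3 and 164 CPM after treatment. It had the highest log2 fold change of the 42 genes, 1.88 ± 0.46 (adjusted p = 0.142 in edgeR's quasi-likelihood test), which was 1.07 without cmLumiOpto/PARPi replicate 2. The stromelysins next to them overlapped between the groups. Mmp3 (chr9:7445822-7455975) was at 66.5 and 87.1 CPM in saline and at 23.2 and 92.8 CPM after treatment, so its treated libraries spanned the saline ones, and Mmp10 (chr9:7502352-7510240) was at 6.46 and 6.20 CPM and at 3.34 and 6.44 CPM. Mmp7 (matrilysin, chr9:7692090-7699585) had 0 counts in all 4 libraries. All 5 genes lie on the plus strand.

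The 250 bases before a RefSeq start are shown for Mmp13, Mmp12, Mmp3 and Mmp10 of this cluster, as a description of the sequence. Promoter windows of RefSeq (GRCm38.p6) were found for 34 of the 50 genes, and Mmp2 is not one of them. The capitals mark TGACTCA, a site of AP-1 (the FOS and JUN family of transcription factors), or its reverse complement TGAGTCA, both of which were searched for.
Mmp13, chr9:7272264-7272513, plus strand: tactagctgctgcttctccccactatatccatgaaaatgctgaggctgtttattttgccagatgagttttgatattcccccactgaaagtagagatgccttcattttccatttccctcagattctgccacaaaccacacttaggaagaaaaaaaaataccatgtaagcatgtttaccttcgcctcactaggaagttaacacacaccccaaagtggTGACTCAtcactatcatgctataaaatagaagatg
Mmp12, the second of 2 RefSeq starts, chr9:7347124-7347373, plus strand: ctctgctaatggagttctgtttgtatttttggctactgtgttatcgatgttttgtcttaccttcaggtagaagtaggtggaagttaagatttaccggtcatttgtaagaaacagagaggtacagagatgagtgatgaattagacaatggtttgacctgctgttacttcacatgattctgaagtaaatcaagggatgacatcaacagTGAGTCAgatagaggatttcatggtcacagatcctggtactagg
Mmp3, chr9:7445572-7445821, plus strand: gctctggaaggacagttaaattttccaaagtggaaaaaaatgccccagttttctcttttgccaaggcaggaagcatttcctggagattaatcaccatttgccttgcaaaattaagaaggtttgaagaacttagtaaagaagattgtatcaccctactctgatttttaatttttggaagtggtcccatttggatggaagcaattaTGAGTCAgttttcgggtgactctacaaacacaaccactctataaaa
Mmp10, chr9:7502092-7502341, plus strand: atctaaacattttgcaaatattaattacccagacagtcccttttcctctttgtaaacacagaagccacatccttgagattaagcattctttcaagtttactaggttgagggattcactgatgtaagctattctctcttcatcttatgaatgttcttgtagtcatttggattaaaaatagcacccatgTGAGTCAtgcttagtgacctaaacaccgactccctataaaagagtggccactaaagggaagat
The match begins 35 bases before the start in Mmp13, 44 in Mmp12, 46 in Mmp3 and 63 in Mmp10, and Mmp7 has one too, 63 bases before its start. The window of the other Mmp12 start (chr9:7344147-7344396) has no match. These letters occur in 1466 of all 32851 windows of that length (4.46%) and in 6 of the 39 windows of these genes. The 6 windows belong to 6 of the 34 genes, the sixth being Adam19. TATAAA was found in 12.4% of all windows and, among the sequences shown, in Mmp13, Mmp3 and Mmp10. The Mmp12 window shown lies inside the gene and is the one of its 2 windows with a match. The windows of Adamts1 and Adamts12, which are not shown, have no match. Since the 4 printed windows all hold the letters, they cannot show whether the letters go with the fold changes, which was not tested. A match of letters is a description of the sequence and does not show that a factor bound there.

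All 7 ADAM genes had log2 fold changes below 0, with a median of -0.30. At an unadjusted p under 0.05, 2 of the 7 were lower, beside 12% of all tested genes. Adam12 (chr7:133883199-134232146, minus strand), a sheddase known from tumour stroma and carcinoma cells, was at 26.3 and 34.5 CPM in saline and 12.2 and 10.5 CPM after cmLumiOpto/PARPi. The groups were far apart, with a log2 fold change of -1.42 ± 0.22 and an adjusted p of 0.138 in edgeR's quasi-likelihood test. Adam10, the main sheddase of Notch receptors and cadherins, was the most abundant of the family and was at 346 and 397 CPM in saline and at 265 and 297 CPM after treatment (-0.40 ± 0.15, adjusted p = 0.217 in edgeR's quasi-likelihood test).

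The differences of the other ADAM genes were smaller. Adam17, which releases TNF and several EGFR ligands, was at 93.4 and 118 CPM in saline and 86.4 and 87.5 CPM after cmLumiOpto/PARPi (log2 fold change -0.28 ± 0.16, and -0.12 without saline replicate 2). Adam15 was at 104 and 102 CPM in saline and at 89.9 and 87.2 CPM after treatment (-0.21 ± 0.12), a narrow gap without overlap, and it shares 20.6% of its exon bases with an antisense gene. Adam8, a sheddase of leukocytes, varied by replicate, with 107 and 229 CPM in saline and 77.1 and 174 CPM after treatment (-0.42 ± 0.48). Adam9 and Adam19 also overlapped between the groups, with log2 fold changes of -0.20 ± 0.19 and -0.30 ± 0.24.

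The TIMP inhibitors were not alike. Timp3 (chr10:86300372-86349506, plus strand), which is held in the matrix and inhibits ADAM17 and several ADAMTS enzymes besides MMPs, was at 184 and 123 CPM in saline and at 84.2 and 58.0 CPM after cmLumiOpto/PARPi. Both treated libraries lay below both saline libraries, with a log2 fold change of -1.11 ± 0.26 and an adjusted p of 0.139 in edgeR's quasi-likelihood test. Of the exon bases of Timp3, 21.3% are shared with Syn3 on the opposite strand. Timp1, a soluble inhibitor induced in inflamed tissue, was at 161 and 123 CPM in saline and at 137 and 146 CPM after treatment. Its treated libraries lay between the saline ones, with a log2 fold change of -0.01 ± 0.17, which was 0.05 under scaling by library totals and -0.40 once the length trend described below was removed. Timp2 was described above with Mmp2. Timp4 had 2 and 0 counts in saline and 11 and 10 after treatment, too few to be tested.

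Setting enzymes against inhibitors, the summed MMP level per length was 0.580 and 0.606 of the summed TIMP level in saline and 0.422 and 0.564 after cmLumiOpto/PARPi. With ADAM and ADAMTS enzymes added, the ratio was 1.12 and 1.32 in saline and 0.998 and 1.12 after treatment, so the saline and treated libraries met at 1.12. These are ratios of RNA and do not measure proteinase activity.

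Genes around these families were read from lists. Their counts stand beside 9.21% higher and 12% lower over all tested genes at an unadjusted p under 0.05 in edgeR's quasi-likelihood test. Of 24 other metzincins, 13 were tested, 1 being higher and 2 lower at an unadjusted p under 0.05, with a median log2 fold change of -0.24. Bmp1, the procollagen C-proteinase, was at 620 and 632 CPM in saline and at 364 and 445 CPM after cmLumiOpto/PARPi (-0.63 ± 0.16), alongside the N-proteinase Adamts2. Neutrophil collagenase Mmp8 was at 31.8 and 71.1 CPM in saline and 15.4 and 27.4 CPM after treatment, and Adam28 at 0.502 and 0.886 CPM and at 1.78 and 1.81 CPM. Of the 18 tested genes among convertases, iRhoms and other regulators, 2 were lower at an unadjusted p under 0.05. These were Lrp1, an endocytic receptor that clears MMPs, ADAMTS enzymes and TIMPs, at 806 and 1045 CPM in saline and 337 and 470 CPM after treatment (-1.20 ± 0.23), and Furin, the convertase that activates Mmp14 and the ADAM and ADAMTS precursors, at 279 and 289 CPM and at 165 and 199 CPM (-0.64 ± 0.15). Tspan33 was close to the floor in saline, with a log2 fold change of 2.31 ± 0.96.

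The substrates of these enzymes were divided. The counts below stand beside the same shares over all tested genes, 9.21% higher and 12% lower. Among hyalectans, their link proteins and hyaluronan genes, 5 of 11 were tested and 2 were lower at an unadjusted p under 0.05. Vcan (versican), cleaved by Adamts1 and Adamts9, was at 76.4 and 59.8 CPM in saline and 20.9 and 33.0 CPM after cmLumiOpto/PARPi (-1.34 ± 0.26), and the hyaluronan synthase Has2 was at 84.2 and 104 CPM and at 60.9 and 74.9 CPM (-0.47 ± 0.17). The hyaluronan receptor Cd44 was at 506 and 788 CPM in saline and 364 and 480 CPM after treatment (-0.62 ± 0.26). All 18 listed substrates of Adam10 and Adam17 were tested, with a median log2 fold change of 0.12, and at an unadjusted p under 0.05, 1 was higher and 4 were lower. Those lower included Notch2 (248 and 249 CPM in saline, 133 and 136 CPM after treatment), Tgfa (121 and 147 CPM, 64.5 and 67.3 CPM) and Il6ra (86.5 and 91.0 CPM, 56.2 and 55.5 CPM). Of 13 plasminogen activation genes, whose proteinase plasmin can activate several MMPs, 9 were tested and 1 was lower at an unadjusted p under 0.05, the activator Plat (95.3 and 160 CPM, 51.9 and 74.4 CPM). Thbd (thrombomodulin) was at 34.4 and 24.1 CPM in saline and at 105 and 22.3 CPM after treatment. Its groups overlapped, and the log2 fold change of 1.13 ± 0.67 came from cmLumiOpto/PARPi replicate 1.

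Some lists of cell type markers differed between the groups and others overlapped. In bulk RNA fewer cells of a type and less RNA per cell cannot be told apart. Over all tested genes, 9.21% were higher and 12% lower at an unadjusted p under 0.05 in edgeR's quasi-likelihood test. Of 12 fibroblast markers, 11 were tested, of which 6 (Col1a1, Col1a2, Col3a1, Pdgfra, Pdgfrb and Lum) were lower and 2 (Dpt and Tcf21) higher at an unadjusted p under 0.05. The list summed to 5265 and 3640 CPM in saline and to 1826 and 2002 CPM after cmLumiOpto/PARPi. Of that sum, Col1a1 made up 2064 and 1377 CPM in saline and 455 and 572 CPM after treatment. Col1a2 made up 1250 and 775 CPM in saline and 417 and 438 CPM after treatment, and Col3a1 1407 and 1011 CPM and 535 and 623 CPM. With each fibroblast marker weighted alike, the mean log2 CPM overlapped between the groups (5.77 and 5.05 in saline, 5.43 and 4.92 after treatment). Of 8 alveolar type 2 markers, 7 were higher at an unadjusted p under 0.05, and Abca3 was at 147 and 129 CPM in saline and at 125 and 94.0 CPM after treatment. That list summed to 1719 and 464 CPM in saline and 8328 and 2973 CPM after treatment, of which Sftpc made up 1020 and 176 CPM and 6153 and 2092 CPM. Both treated libraries also lay higher in the sums of alveolar type 1 markers (312 and 132 CPM, 878 and 431 CPM), club and secretory markers (1152 and 82.4 CPM, 5696 and 3190 CPM) and ciliated markers (14.4 and 7.43 CPM, 69.3 and 37.2 CPM), with 3 of 7, 6 of 6 and 5 of 7 markers higher at an unadjusted p under 0.05. Of the club and secretory sum, Scgb1a1 made up 1088 and 74.7 CPM in saline and 5305 and 2794 CPM after treatment. Thus the summed levels of lung epithelium markers were higher in both treated libraries. The fibroblast sum was lower in both, but it was mostly Col1a1, Col1a2 and Col3a1, and the mean over its markers overlapped.

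The macrophage and monocyte list, at 4336 and 3504 CPM in saline and 4487 and 3724 CPM after cmLumiOpto/PARPi, overlapped, with Trem2 and Cd68 higher and Mrc1 and Cd163 lower at an unadjusted p under 0.05. The lists for alveolar macrophages (134 and 439 CPM, 131 and 153 CPM), neutrophils (1596 and 734 CPM, 952 and 1925 CPM), T cells (65.3 and 25 CPM, 131 and 46.5 CPM), NK cells (23.2 and 22.5 CPM, 55.6 and 13.5 CPM) and B cells (383 and 15.3 CPM, 250 and 146 CPM) also overlapped. So did those for endothelium (550 and 440 CPM, 825 and 451 CPM), smooth muscle and pericytes (205 and 241 CPM, 219 and 176 CPM), mesothelium (138 and 233 CPM, 232 and 216 CPM), cardiac muscle (102 and 92.9 CPM, 68.2 and 157 CPM) and 4T1 epithelium (3177 and 3469 CPM, 2880 and 3869 CPM). Proliferation genes summed to 1139 and 1172 CPM in saline and to 871 and 1100 CPM after treatment, so both treated sums lay lower. The genes themselves were divided. Of 6 tested, Mki67 was lower and Birc5 higher at an unadjusted p under 0.05 in edgeR's quasi-likelihood test. No marker of these lists was at 0 in all 4 libraries, although Krt6a of the 4T1 list had 1 count in all and Fabp1 of the alveolar macrophage list had counts in 1 library. The part of any of these cell types in the values of the 50 genes was not tested.

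**Figure D3:**
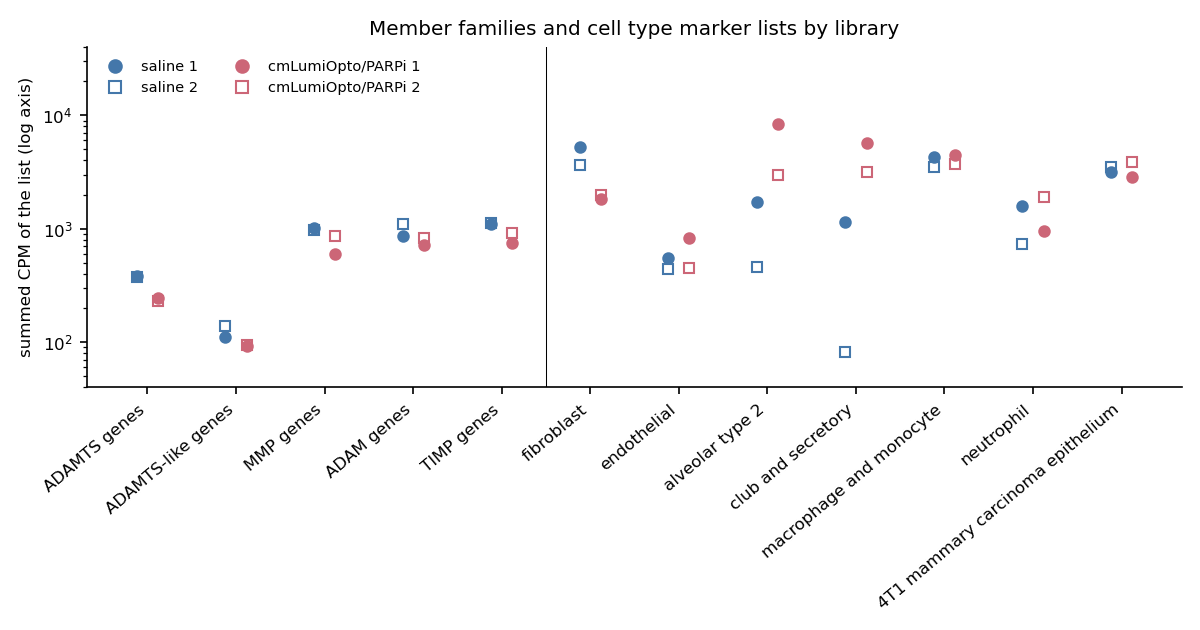
Summed CPM (log axis) of the 5 families and of 7 cell type marker lists in each library; circles are replicate 1 and squares replicate 2, blue saline and red cmLumiOpto/PARPi. The 5 families and the fibroblast list lie lower in both treated libraries, and the alveolar type 2 and club lists lie higher.

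Gene length moved with the fold change across the whole table. The Spearman correlation of log2 fold change with gene length was -0.373 over the 15167 genes, which share the same 4 libraries, and the median log2 fold change went from 0.31 in the shortest of 5 equal groups to -0.27 in the longest. The 42 genes were longer than the tested genes in all, with a median of 5695 against 4127 bases. In the longest group (7273 bases or more), 6 of 13 genes of these families were lower at an unadjusted p under 0.05, where 31.4% of all genes in the group were. Once the length trend was taken out of each library, the median of the 42 was -0.42, against -0.06 for all genes, with 4 higher (9.52%, against 5.91% of all genes) and 12 lower (28.6%, against 8.43%) at an unadjusted p under 0.05. The log2 fold change was then -1.76 for Adamts12, -1.86 for Mmp2, -1.20 for Adam12, -1.18 for Adamts1, 2.01 for Mmp12 and 1.10 for Mmp13. In 31 of the 42 genes the value stayed within 1.5 times of the uncorrected one. It was smaller than that in 4, at -0.44 for Adamts9, -0.19 for Adam17 and Adam19 and -0.04 for Mmp25, and larger in 6, at -0.40 for Timp1, -0.71 for Mmp3, -0.69 for Mmp10, -0.34 for Mmp11, 0.47 for Adamts5 and 0.45 for Adamts15, while Adamtsl1 changed sign to 0.19.

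**Figure D4:**
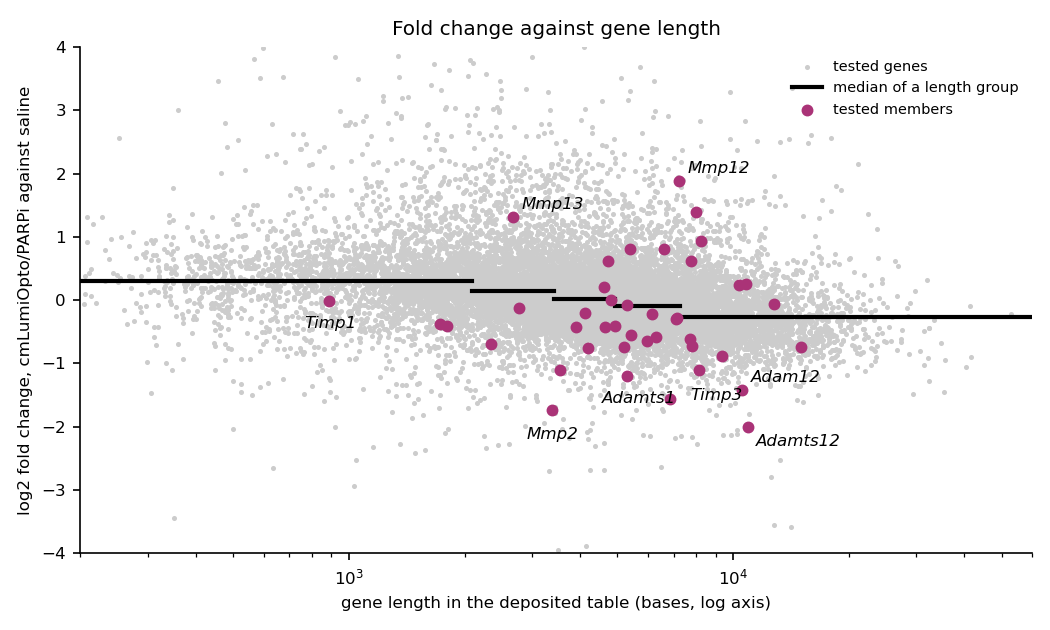
Log2 fold change (cmLumiOpto/PARPi over saline) against gene length in the deposited table (bases, log axis) for all tested genes (grey, 78 outside the plotted range), with the median of each of 5 length groups (black) and the 42 genes of these families (purple). The medians go from 0.31 to -0.27 with length, and Adamts12, Mmp2 and Adam12 lie far below the line of their group.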

How the data were processed

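RNA of metastatic lungs was sequenced from poly(A) RNA in 2 saline and 2 cmLumiOpto/PARPi libraries. The authors mapped reads with HISAT2 and deposited raw read counts per gene, with gene lengths. The study's methods give GRCm38 and the labels a later build. The counter, the annotation release and whether strand was used are not given in the sources used here. Gene coordinates are those of GENCODE M21 by Ensembl identifier, since 2.76% of 52073 shared genes had the table's position, and promoter windows are those of RefSeq (GRCm38.p6). Without strand, reads of genes that overlap on opposite strands cannot be told apart, and 15 of the 50 genes share exon bases with such a gene.

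Counts were tested over all genes with edgeR 4.0.16 in R 4.3.3 (TMM, filterByExpr with a minimum count of 10, quasi-likelihood test, Benjamini-Hochberg adjustment, threshold 0.05). The SE is the log2 fold change divided by the square root of F. CPM used TMM factors, and CPM per kilobase the deposited length. Replicates of a group differed beyond counting noise (chi-square per degree of freedom 24.1 in saline and 41.1 after treatment). The alternatives tried were other scalings, no filter, DESeq2 1.42.0, the likelihood ratio and exact tests of edgeR, a loess correction for length (span 0.5), the replicate block and leaving out each library. The script was tested on simulated counts.

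The genes, lists and tests were chosen with earlier results of these data known. Values in every library are given for the TIMP genes, for up to 4 tested genes of each other family in each direction with the smallest unadjusted p, and for up to 3 genes of each pathway list, of which 1 gene is not reported here. Other genes given by library were chosen after their values were seen.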

Additional observations from a re-analysis of the deposited data

How the results depend on the processing

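The median log2 fold change of the 42 tested genes kept its sign under every alternative, between -0.43 and -0.27, and 6 genes lay higher and 20 lower without overlap under each of the 3 other scalings, which were chosen after seeing the data. Of all genes, 31.8% lay higher and 24.0% lower with library totals alone, 20.6% and 28.8% with the length trend removed, and 27.7% and 27.2% with DESeq2 size factors. Counts of calls depended on the test. At an adjusted p under 0.05 there were 0 genes of these families and 0 of all genes in edgeR's quasi-likelihood test, where an unadjusted p under 0.05 gave 17 and 3221, and likewise 0 and 0 with the other scalings, the length correction and glmQLFit without its legacy option. DESeq2 gave 10 and 981 (7.32% of all genes), edgeR's likelihood ratio test 9 and 865 (5.70%), and its exact test 9 and 815 (5.37%). The quasi-likelihood test without the filter gave 16 and 2000 (7.86%). In that fit 26 of 48 genes of these families (54.2%, against 17.6% of all genes) had an unadjusted p under 0.05. Leaving out each library gave 0 to 1 and 0 to 31, with 10 to 22 at an unadjusted p under 0.05, a library left alone in its group being assumed to vary like the others. The 9 genes called by DESeq2, the likelihood ratio test, the exact test, the fit without the filter and the block were Adam12, Adamts1, Adamts2, Adamts9, Adamts12, Mmp2, Mmp12, Mmp13 and Timp3. The cause of these differences was not tested. A floor of 3 counts and 2 libraries per group limit what could be detected, most of all for the 8 untested genes.

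In the fit with replicate number as a block, 13 of the 42 genes of these families and 1822 genes in all (12%) passed. No source says that a number marks a shared animal or batch, and there are only 2 pairs. Deviations of same-numbered libraries from their group means had a Spearman correlation of 0.298 over genes. Adamts4 (-0.00864), Mmp25 (0.0565) and Timp1 (0.00329) had the opposite sign in the block fit.

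Other changes of sign were in genes with values near 0 or spread replicates. Adamts4 was at -0.000538 without the filter, Adamtsl1 at 0.00614 with library totals alone and at 0.19 after the length correction, and Timp1 at 0.0541 with library totals alone. Leaving out each library gave log2 fold changes of -1.88 to 0.15 in Adamts3, -0.27 to 0.23 in Adamts4, -0.34 to 0.64 in Adamts5, -0.11 to 0.58 in Adamts8, -0.24 to 0.93 in Adamts15, -0.24 to 3.09 in Adamts17, -0.72 to 0.36 in Adamtsl1, -1.75 to 0.27 in Mmp3, -0.94 to 0.0233 in Mmp10, -0.39 to 0.18 in Mmp11, -0.13 to 1.35 in Mmp15, -0.62 to 0.78 in Mmp25, -1.14 to 0.22 in Adam8, -0.43 to 0.0275 in Adam9, -0.59 to 0.0423 in Adam19 and -0.21 to 0.18 in Timp1.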
